A study of Homo sapiens with 4 samples.

Results

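The transcripts of the NF-kB subunits and of the inhibitors that NF-kB induces were examined in Huh7 cells with and without a METTL16 guide. The 10 genes were chosen by name, with earlier results of these data known, from the 18806 gene symbols of the deposited expression table. They comprise the 5 subunits (RELA, NFKB1, NFKB2, REL and RELB) and 5 genes grouped here as induced inhibitors (NFKBIA, NFKBIE, TNFAIP3, TNIP1 and BIRC3). Huh7 is an established line of human liver cancer cells, derived from a hepatocellular carcinoma. All the cells descended from a single clone with stable Cas9, the nuclease that cuts DNA where a guide RNA directs it, and were then transduced by lentivirus with a non-targeting guide (sgNS, n = 2 libraries) or with a guide against METTL16, an RNA methyltransferase (METTL16 KO, n = 2 libraries). The libraries labelled METTL16 KO here are called a knockdown in the sample records, and no second clone and no library without Cas9 was compared.

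NF-kB is a family of transcription factors made of pairs of subunits. In resting cells most pairs are held in the cytoplasm by IkB proteins. Receptors of the tumour necrosis factor, interleukin and Toll-like families signal through adaptors and ubiquitin ligases to the IKK kinases, which mark IkB for destruction and so release NF-kB into the nucleus. NF-kB then switches on inflammatory and survival genes together with its own inhibitors, which end the response. In hepatocytes the pathway is known for acute-phase and survival responses.

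Expression is given in TPM, a share of all transcripts that is corrected for transcript length and sums to 1000000 in each library. Read counts cannot be recovered from TPM. Sequencing depth is therefore unknown, and the spread over 2 libraries is the only error available. Changes were tested on log2(TPM + 0.1) with limma among 11971 genes whose mean was at least 1 TPM, and p-values were adjusted by the method of Benjamini and Hochberg over all of these genes. On that scale the change of a gene with a low level is understated. In a comparison of 2 libraries with 2, an exact permutation test of a single gene cannot reach a p below 0.33, so these p-values lean on the spread that limma shares across genes. The study's methods describe the 2 libraries of each group as biological replicates, and whether these came from separate cultures is not given in the sources used here, so the p-values measure the spread between these libraries.

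METTL16 itself was listed at 26.3 and 25.1 TPM in the sgNS libraries and at 17.6 and 18.8 TPM in the METTL16 KO libraries. Both METTL16 KO libraries were below both sgNS libraries, with a ratio of mean TPM of 0.707. The number of genes at 1 TPM or more was 11723 to 11768 in sgNS and 12051 to 12074 in METTL16 KO. All 8 liver cell markers were detected. Their summed level was 15944 to 16099 TPM in sgNS and 29376 to 29806 TPM in METTL16 KO. Most of that difference lay in AFP, which rose from 1765 to 10292 TPM in the mean. Of the 8 markers 7 rose and 1 fell, where 50.1% of all genes tested rose and 25.6% fell. ALB, APOA1, TTR, FGB and HNF4A rose by 0.41, 0.80, 0.74, 1.84 and 0.70 on the log2 scale. SERPINA1 rose less, from 3415 to 3842 TPM, and APOB fell, from 1163 to 1036 TPM. After median-ratio scaling, explained below, 6 of the 8 rose and 1 fell, and SERPINA1, at 0.0044, no longer passed the test. After quantile normalization 6 rose and 1 fell as well, and ALB, at 0.044, did not pass. Of the 6 immune cell markers, MS4A1 was listed at 0 in all 4 libraries and PTPRC, the pan-leukocyte marker, was at 0.22 ± 0.028 TPM (SD, n = 2) in sgNS and 0.315 ± 0.23 TPM (SD, n = 2) in METTL16 KO. LYZ was abundant and lower in METTL16 KO, at 1510 and 1553 TPM in sgNS and 909 and 924 TPM in METTL16 KO. With LYZ the 6 immune markers summed to 1515 to 1557 TPM in sgNS and 920 to 934 TPM in METTL16 KO. Without LYZ they summed to 3.93 to 4.94 TPM in sgNS and 10.5 to 11.3 TPM in METTL16 KO. CD68 made up most of both sums without LYZ, with means of 3.1 TPM in sgNS and 8.7 TPM in METTL16 KO. The 3 endothelial markers summed to 4.76 to 5.15 TPM and 2.73 to 3.13 TPM, and the 4 fibroblast and stellate cell markers to 2.13 to 2.57 TPM and 2.31 to 2.85 TPM. Whether these shifts have a part in the values of the NF-kB genes was not tested. In bulk RNA of this cloned line, a change in the share of cells in a given state cannot be told apart from a change in RNA per cell.

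The sequence that NF-kB pairs recognise, the kB motif, stands before the start of many of its target genes. RefSeq promoter windows of GRCh38.p14, which run from 250 bases before to 50 bases after an annotated start, were found for 8 of the 10 genes, as 13 windows because some genes have several starts. There was no entry for NFKBIE and RELB. A match to the kB consensus, read on both strands, stood in at least 1 window of 7 of the 8 genes, against 16.9% of the 9856 tested genes with a window and 11.3% of all 35116 windows. The stricter form GGGANNTTCC, whose matches are all also matches of the consensus, stood in 6 of the 8, against 2.11% of tested genes and 1.61% of all windows. Since the inhibitors were chosen as genes that NF-kB induces, these shares are not independent of that choice. The promoters of NFKBIA, TNFAIP3 and BIRC3 are shown because these genes had the largest rises, and that of NFKB1 because it had the smallest. Each runs 5′ to 3′ along the gene's strand up to the base before the gene begins, with matches to the kB consensus in capitals.

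NFKBIA, chr14:35404750-35404999, minus strand: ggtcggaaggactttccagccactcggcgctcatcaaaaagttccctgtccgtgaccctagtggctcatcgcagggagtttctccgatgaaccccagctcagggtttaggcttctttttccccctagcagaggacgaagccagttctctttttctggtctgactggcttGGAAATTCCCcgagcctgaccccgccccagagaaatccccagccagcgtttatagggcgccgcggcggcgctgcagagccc
TNFAIP3, chr6:137867009-137867213, plus strand: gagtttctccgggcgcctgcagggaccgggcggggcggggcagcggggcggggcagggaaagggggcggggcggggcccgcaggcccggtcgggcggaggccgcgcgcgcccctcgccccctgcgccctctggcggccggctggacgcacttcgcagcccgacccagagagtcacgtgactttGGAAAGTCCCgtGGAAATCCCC
BIRC3, chr11:102317234-102317483, plus strand: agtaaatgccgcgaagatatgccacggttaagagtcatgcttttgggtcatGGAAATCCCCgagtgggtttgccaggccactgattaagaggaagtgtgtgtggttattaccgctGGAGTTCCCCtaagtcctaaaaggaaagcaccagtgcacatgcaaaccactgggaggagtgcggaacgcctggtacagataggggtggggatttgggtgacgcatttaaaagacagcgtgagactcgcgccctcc
NFKB1, chr4:102501109-102501329, plus strand: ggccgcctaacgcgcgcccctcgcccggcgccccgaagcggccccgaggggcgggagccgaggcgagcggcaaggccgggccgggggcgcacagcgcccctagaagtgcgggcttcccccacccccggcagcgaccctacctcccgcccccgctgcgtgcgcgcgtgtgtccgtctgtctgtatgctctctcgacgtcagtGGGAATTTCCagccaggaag

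The match in NFKBIA began 81 bases before the RefSeq start and that in NFKB1 49 bases before it, and both were of the stricter form. TNFAIP3 had a pair of matches, at 67 and 55 bases before the start, of which the first was of the stricter form. BIRC3 had matches at 199 and 135 bases before the start, neither of the stricter form. REL had overlapping matches at 47 and 46 bases, and TNIP1 had 1 at 42 bases in the second of its windows. NFKB2 had matches in 2 of its 3 windows, the nearest at 21 bases. Neither window of RELA held a match, which says only that these letters are not in these windows. A match is a stretch of letters, and binding was not measured in these libraries.

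**Figure D1:**
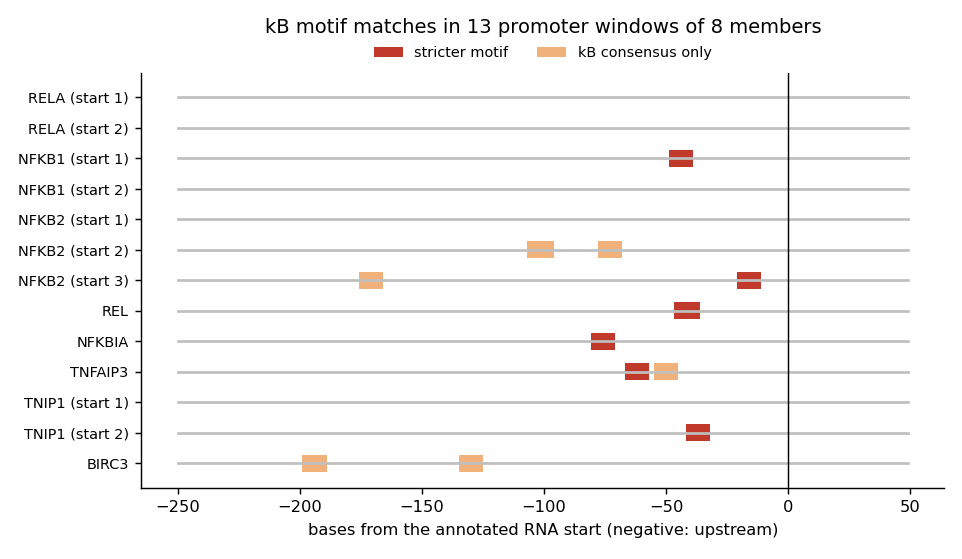
Position of kB motif matches in the 13 RefSeq promoter windows of 8 NF-kB genes. The horizontal axis is the distance in bases from the annotated RNA start, each grey line is a window, and coloured blocks are matches of the stricter form or of the kB consensus only. Matches stand in 8 of the 13 windows, all before the start, and both RELA windows are empty.

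All 10 genes rose in METTL16 KO and none fell (limma, Benjamini-Hochberg adjusted p between 6.9e-10 and 0.00011). Over all genes tested, 50.1% rose and 25.6% fell, so a rise alone was common in this comparison. In 10 of 10 genes both METTL16 KO libraries lay above both sgNS libraries, against 56.8% of all genes tested. Because the genes were chosen with earlier results known, comparisons with all genes tested describe the set and do not test it. A rise of at least 2-fold was found for 4 of the 10, NFKBIA, NFKBIE, TNFAIP3 and BIRC3, against 7.70% of all genes tested. All 4 stand in the group of induced inhibitors. RELB, a subunit, lay just below the 2-fold limit and NFKBIE just above it. BIRC3 passed the filter on low values only through its METTL16 KO libraries, whereas the other 9 genes were above 1 TPM in every library.

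The median log2 fold change was 0.66 over the 5 subunits and 1.21 over the 5 inhibitors, against 0.16 over all genes tested, whose middle 90% ran from -0.88 to 1.22. Median-ratio scaling divides each library by its median ratio to an average library. By construction it takes out a shift common to most genes, and the median over all genes tested went from 0.16 to -0.0016. The median of the 10 genes was then 0.67 in place of 0.83, with all 10 still higher. The medians of the inhibitors and of the 10 genes include BIRC3, which passed the filter only through its METTL16 KO libraries. Among the 9 members above 1 TPM in every library, the share of tested genes with a larger rise ran from 1.45% for TNFAIP3 to 36.3% for NFKB1.

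**Figure D2:**
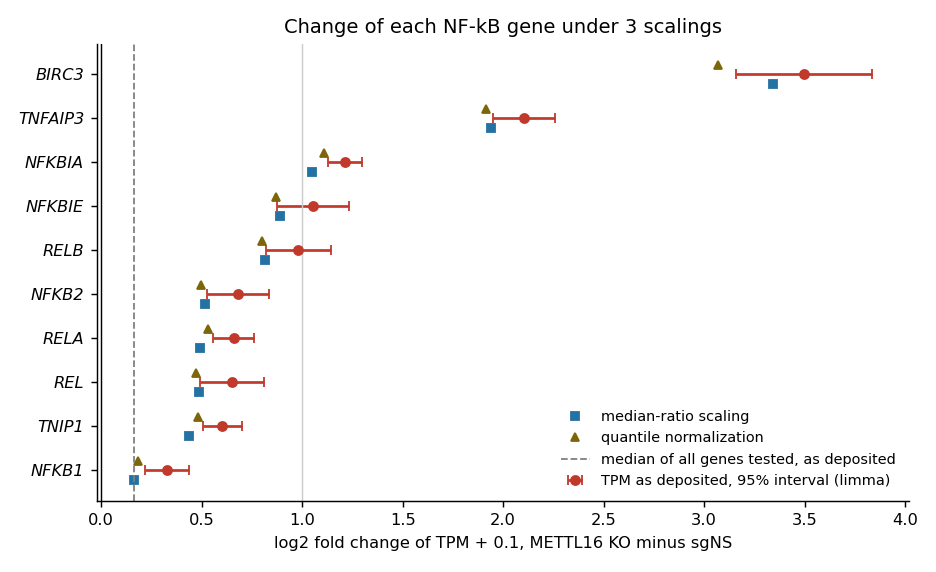
Log2 fold change of TPM + 0.1 between METTL16 KO and sgNS for the 10 NF-kB genes, with red points and 95% intervals from limma on TPM as deposited, squares after median-ratio scaling and triangles after quantile normalization. The dashed line is the median of all genes tested (0.16) and the grey line marks a 2-fold rise. All points lie above 0, with NFKB1 at the bottom (0.33) and BIRC3 at the top (3.50).

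RELA encodes the p65 subunit, which carries a transactivation domain and forms the most common NF-kB pair with the NFKB1 product. It lies on the minus strand of chromosome 11, at chr11:65653599-65663090 of GRCh38, with 11 exons, and a divergent RNA, RELA-DT, shares 103 bases with it. RELA was listed at 47.6 and 45.4 TPM in the sgNS libraries and at 73.2 and 73.7 TPM in the METTL16 KO libraries, which made it the most abundant subunit in all 4 libraries. The groups were well apart. Its log2 fold change was 0.66 (SE 0.046, adjusted p 2.6e-07 by limma with Benjamini-Hochberg adjustment), or 0.49 after median-ratio scaling.

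NFKB1 encodes a precursor that is cut to the p50 subunit, which binds DNA but has no transactivation domain of its own. The gene spans chr4:102501330-102617302 on the plus strand with 24 exons. Its levels were 37.1 and 36.5 TPM in the sgNS libraries against 45.3 and 47.1 TPM in the METTL16 KO libraries. The 4 libraries did not overlap between the groups, but the rise was the smallest of the 10, with a log2 fold change of 0.33 (SE 0.049, adjusted p 0.00011 by limma with Benjamini-Hochberg adjustment). After median-ratio scaling it was 0.16, with an adjusted p of 0.012 from limma.

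NFKB2 encodes the precursor of p52, the DNA-binding subunit of the non-canonical pathway. It lies at chr10:102394110-102402524 on the plus strand, with 23 exons. It was listed at 15.4 and 14.1 TPM in the sgNS libraries and at 22.7 and 24.7 TPM in the METTL16 KO libraries. Both METTL16 KO libraries were higher, by a log2 fold change of 0.68 (SE 0.071, adjusted p 6e-06 by limma with Benjamini-Hochberg adjustment).

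REL encodes c-Rel, a transactivating subunit best known in lymphocytes. The gene is at chr2:60881491-60931612 on the plus strand with 10 exons, and a small nuclear RNA pseudogene and a long non-coding RNA on the same strand overlap it, so their reads could be split with it. REL was at 12.1 and 11.0 TPM in the sgNS libraries and 17.8 and 18.5 TPM in the METTL16 KO libraries. These groups were apart too, and the log2 fold change of 0.65 (SE 0.072, adjusted p 1e-05 by limma with Benjamini-Hochberg adjustment) was close to those of RELA and NFKB2, with intervals that overlap (0.49 to 0.81 for REL, 0.56 to 0.76 for RELA and 0.52 to 0.84 for NFKB2).

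RELB encodes the transactivating partner of p52 and is itself an NF-kB target. It lies at chr19:45001461-45038192 on the plus strand, with 12 exons. Its levels were 9.84 and 10.4 TPM in the sgNS libraries and 20.9 and 19.2 TPM in the METTL16 KO libraries. RELB rose most of the subunits, by a log2 fold change of 0.98 (SE 0.073, 95% interval 0.82 to 1.14, adjusted p 4.4e-07 by limma with Benjamini-Hochberg adjustment). Leaving out sgNS replicate 2 or METTL16 KO replicate 2 brought it past the 2-fold limit, to 1.02 and 1.04. Leaving out sgNS replicate 1 or METTL16 KO replicate 1 lowered it to 0.94 and 0.92. It was 0.82 after median-ratio scaling and 0.80 after quantile normalization.

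NFKBIA encodes IkB-alpha, the inhibitor that holds RELA pairs in the cytoplasm and whose resynthesis is the fastest feedback of the pathway. It is a compact gene of 6 exons on the minus strand at chr14:35401079-35404749. NFKBIA was listed at 78.4 and 76.9 TPM in the sgNS libraries and at 183.4 and 177.1 TPM in the METTL16 KO libraries, the highest levels of the 10 genes in both groups. The rise exceeded by far the spread within either group, with a log2 fold change of 1.21 (SE 0.039, adjusted p 6.9e-10 by limma with Benjamini-Hochberg adjustment).

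NFKBIE encodes IkB-epsilon, a slower inhibitor of the same kind. It lies on the minus strand at chr6:44258166-44265788, with 6 exons. Its levels were 6.33 and 6.42 TPM in the sgNS libraries and 12.9 and 13.8 TPM in the METTL16 KO libraries. The groups were apart, with a log2 fold change of 1.05 (SE 0.080, adjusted p 5.5e-07 by limma with Benjamini-Hochberg adjustment). The interval of 0.87 to 1.23 contains the 2-fold limit, and after median-ratio scaling the value was 0.89.

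TNFAIP3 encodes A20, an enzyme that edits ubiquitin chains on signalling proteins upstream of the IKK kinases and damps their activity. The gene lies at chr6:137867214-137883314 on the plus strand with 9 exons, and the long non-coding RNA WAKMAR2 runs opposite to it over 1020 bases. It was listed at 5.98 and 6.17 TPM in the sgNS libraries and at 26.9 and 26.0 TPM in the METTL16 KO libraries. The libraries of each group agreed closely and the groups were far apart, with a log2 fold change of 2.10 (SE 0.070, adjusted p 9.2e-10 by limma with Benjamini-Hochberg adjustment), a 4.35-fold ratio of mean TPM.

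TNIP1 encodes a ubiquitin-binding partner of A20. It lies on the minus strand at chr5:151029945-151093577, with 18 exons, and an antisense long non-coding RNA shares 423 bases with it. TNIP1 was high in both groups, at 51.9 and 50.5 TPM in the sgNS libraries and 78.5 and 76.9 TPM in the METTL16 KO libraries. It rose in METTL16 KO with the smallest change of the inhibitors, a log2 fold change of 0.60 (SE 0.044, adjusted p 3.6e-07 by limma with Benjamini-Hochberg adjustment).

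BIRC3 encodes cIAP2, a ubiquitin ligase that acts at tumour necrosis factor receptors and helps to keep the non-canonical kinase NIK low. It spans chr11:102317484-102339403 on the plus strand with 9 exons, and a long non-coding RNA on the opposite strand shares 11103 bases with it. BIRC3 was at 0.58 and 0.61 TPM in the sgNS libraries and at 7.79 and 7.69 TPM in the METTL16 KO libraries. It was the least abundant of the 10 in both groups. The ratio of mean TPM was 13.0, and the log2 fold change was 3.50 (SE 0.15, adjusted p 7.5e-09 by limma with Benjamini-Hochberg adjustment). BIRC3 entered the tested genes only through its METTL16 KO libraries, so this test is not free of the filter on low values, and a minimum mean of 5 TPM drops the gene. With no filter, over 16350 genes, its adjusted p from limma was 0.00011. The fold change depends on the pseudocount because sgNS is low, and it was 2.45 with a pseudocount of 1. The antisense partners of RELA, TNFAIP3, TNIP1 and BIRC3 are not listed in the table under a matching name, and whether the counting used strand is not given in the sources used here.

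**Figure D3:**
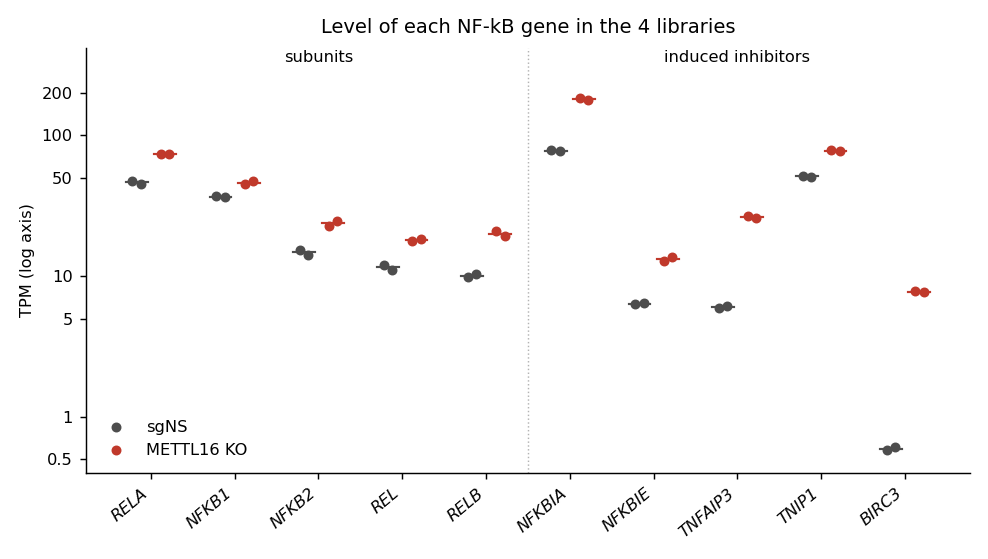
TPM of the 10 NF-kB genes in each of the 4 libraries on a log axis, with sgNS in grey and METTL16 KO in red and a line at each group's mean. For every gene both red points lie above both grey points, and the gap is widest for BIRC3.

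In sgNS the levels ran in the order NFKBIA, TNIP1, RELA, NFKB1, NFKB2, REL, RELB, NFKBIE, TNFAIP3 and BIRC3, from 77.6 ± 1.1 to 0.595 ± 0.021 TPM (SD, n = 2). In METTL16 KO the first 4 places and the last were held by the same genes, from 180.2 ± 4.5 to 7.74 ± 0.071 TPM (SD, n = 2). TNFAIP3 moved up by 4 places, to 26.5 ± 0.62 TPM (SD, n = 2), past NFKB2 at 23.7 ± 1.4 TPM (SD, n = 2). RELB moved past REL, at 20.03 ± 1.2 against 18.2 ± 0.48 TPM (SD, n = 2). No neighbours in either order overlapped in their libraries, although with 2 libraries each this is a weak criterion.

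The balance within the family does not depend on the scaling of a library, since a common factor cancels in a ratio. The summed TPM of the 5 subunits was 122.0 and 117.4 in sgNS and 179.9 and 183.1 in METTL16 KO. The summed TPM of NFKBIA and NFKBIE was 84.7 and 83.3 in sgNS and 196.3 and 190.8 in METTL16 KO. Inhibitor transcripts thus stood at 0.695 and 0.710 per subunit transcript in sgNS and at 1.09 and 1.04 in METTL16 KO, with no overlap. The ratio of NFKBIA to RELA alone was 1.65 and 1.69 in sgNS and 2.50 and 2.40 in METTL16 KO. These ratios are descriptions with no test, and they concern transcripts, not proteins.

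**Figure D4:**
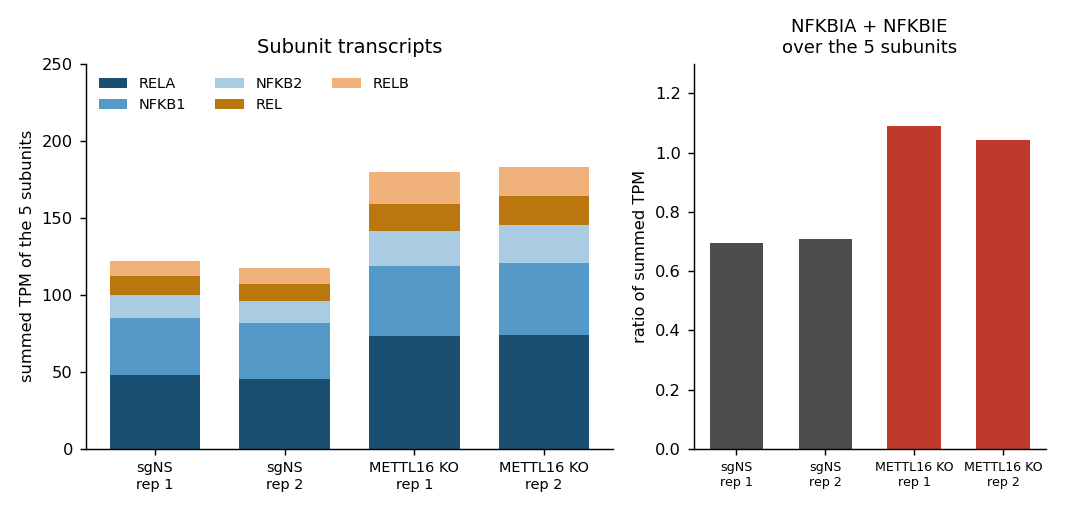
Left, summed TPM of the 5 NF-kB subunits in each library, stacked by gene. Right, summed TPM of NFKBIA and NFKBIE divided by that sum in each library. The sum is 117.4 to 122.0 in sgNS and 179.9 to 183.1 in METTL16 KO, and the ratio is 0.695 to 0.710 and 1.04 to 1.09.

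Among the subunits, RELA made up 39.1% and 38.7% of the sum in sgNS and 40.7% and 40.2% in METTL16 KO. The share of NFKB1 was lower in METTL16 KO, at 25.2% and 25.7% against 30.4% and 31.1%. That of RELB was higher, at 11.6% and 10.5% against 8.07% and 8.83%. The shares of NFKB2, at 12.0% to 12.6% in sgNS and 12.6% to 13.5% in METTL16 KO, and of REL, at 9.38% to 9.90% and 9.91% to 10.1%, lay close together. NFKB1 was thus listed at 2.41 and 2.59 times the level of NFKB2 in sgNS and at 2.00 and 1.91 times in METTL16 KO. A20 and its partner also shifted, with 0.115 and 0.122 TNFAIP3 transcripts per TNIP1 transcript in sgNS and 0.342 and 0.338 in METTL16 KO.

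BIRC3 and BIRC2 are neighbours on chromosome 11, 7808 bases apart, and encode related ubiquitin ligases. BIRC2 was listed at 42.9 and 41.5 TPM in the sgNS libraries and at 54.3 and 51.5 TPM in the METTL16 KO libraries, a rise of 0.33 on the log2 scale. BIRC3 was therefore at 0.0135 and 0.0147 of the level of BIRC2 in sgNS and at 0.143 and 0.149 in METTL16 KO. YAP1, on the other side of BIRC3, fell by 0.31. Of the 20 nearest tested genes on either side of the 10 members, 9 rose, 7 fell and 4 did not pass the test. Over all genes tested 50.1% rose and 25.6% fell. Among the neighbours that rose were MANBA beside NFKB1, by 0.72, and GBF1 beside NFKB2, by 0.67. IFNGR1 beside TNFAIP3 rose by 0.56 and CLASRP beside RELB by 0.52. PSMA6 and RALGAPA1, beside NFKBIA, had log2 fold changes of 0.028 and -0.010 (adjusted p 0.49 and 0.92, limma with Benjamini-Hochberg adjustment). KAT5 and SIPA1, beside RELA, fell by 1.55 and 0.79, and ANXA6, beside TNIP1, fell by 1.43. SLC35B2, which ends 276 bases from NFKBIE, fell by 0.42.

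The wider pathway was followed in 7 lists of 88 other genes, of which 85 were in the table and 72 were tested. Of these 72, 54 rose, 7 fell and 11 did not pass the test, with 21 at least 2-fold higher and 0 at least 2-fold lower. Over all genes tested, 50.1% rose, 25.6% fell and 7.70% were at least 2-fold higher, and the counts of each list below stand against these shares. The lists too were chosen with earlier results of these data known, so these comparisons are descriptions and not tests. The median log2 fold change of the 72 genes was 0.53, against 0.16 over all genes tested. After median-ratio scaling 48 rose and 12 fell, with a median of 0.36, while 4359 and 4375 of all 11971 genes tested rose and fell.

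**Figure D5:**
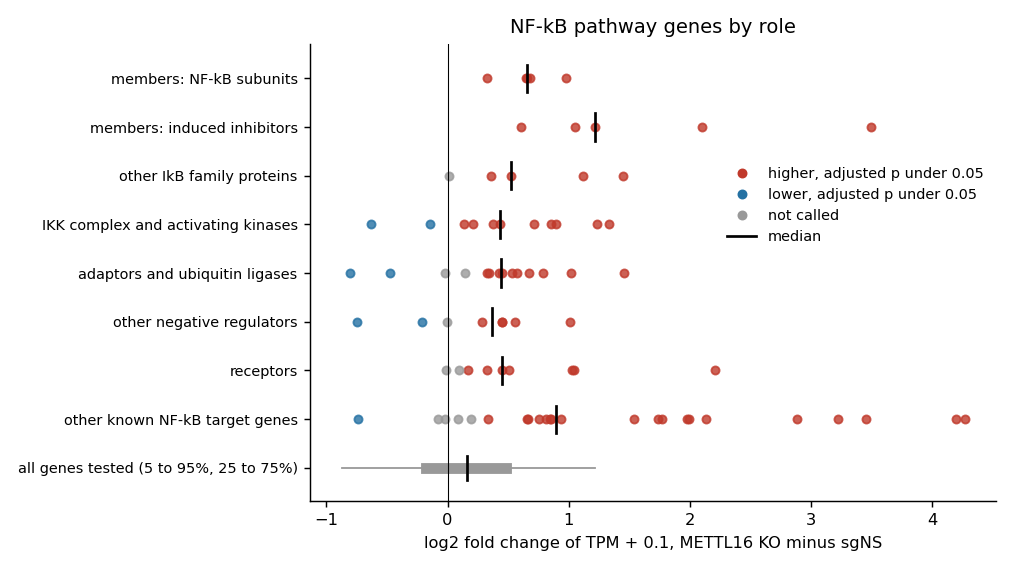
Log2 fold change of TPM + 0.1 between METTL16 KO and sgNS for NF-kB pathway genes grouped by role, coloured by the call at an adjusted p under 0.05 from limma, with a black bar at each median. The lowest row gives the middle 50% and 90% of all genes tested. The medians of the 2 groups of members are 0.66 and 1.21, that of the other known targets is 0.90, and the medians of the other lists shown lie between 0.37 and 0.52. The ligands, of which 1 was tested, are not drawn.

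Among the receptors, 7 of the 9 tested rose and 0 fell. TLR3, a sensor of double-stranded RNA, was listed at 0.34 and 0.6 TPM in the sgNS libraries and at 2.64 and 2.29 TPM in the METTL16 KO libraries, a rise of 2.21 on the log2 scale, and it passed the filter on low values only through the latter. IL1RAP, the co-receptor for interleukin-1, rose by 1.04, TLR2 by 1.03 and the tumour necrosis factor receptor TNFRSF1A by 0.51. After median-ratio scaling 5 receptors rose and 1 fell. CD40 was listed at 0 in all libraries. Of the 9 ligands 6 were in the table and only TNFSF12 was tested, with a log2 fold change of -0.13 (adjusted p 0.63, limma with Benjamini-Hochberg adjustment). TNF, LTA and LTB were not analysed here.

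Of the 14 adaptors and ubiquitin ligases that carry the signal, 10 rose and 2 fell, or 71.4% higher against 50.1% of all genes tested. After median-ratio scaling 10 rose and 3 fell, and after quantile normalization 9 rose and 3 fell. MYD88, the adaptor of Toll-like and interleukin-1 receptors, went from 15.9 and 15.4 TPM to 44.1 and 42.1 TPM, a rise of 1.46. IRAK4, the kinase that MYD88 recruits, rose by 1.02 and RIPK1 by 0.78. TRAF5 fell by 0.80 and IRAK1 fell by 0.47. IRAK1, and below IKBKG, TAB1, TANK and IER3, were picked out after their values were seen, as the genes of their lists that fell.

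Of the 11 genes of the IKK complex and its activating kinases, 9 rose and 2 fell. MAP3K8, a kinase that the NFKB1 precursor holds inactive, rose by 1.33, IKBKE by 1.24, MAP3K14, which encodes NIK, by 0.90 and IKBKB, a catalytic subunit of IKK, by 0.85. IKBKG, the regulatory subunit of the same complex, was instead at 10.2 and 9.61 TPM in the sgNS libraries and at 6.79 and 5.91 TPM in the METTL16 KO libraries. It fell by 0.64 (adjusted p 0.00011, limma with Benjamini-Hochberg adjustment). TAB1 fell by 0.15 with an adjusted p of 0.045 from limma. After median-ratio scaling 7 of the 11 rose and 2 fell.

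The other IkB family proteins were named in full. NFKBIZ, a nuclear IkB protein that acts as a coactivator, went from 45.1 and 47.3 TPM in the sgNS libraries to 125.2 and 128.0 TPM in the METTL16 KO libraries, a log2 fold change of 1.45 (adjusted p 4.6e-10, limma with Benjamini-Hochberg adjustment). BCL3, a nuclear IkB protein that binds p50 and p52 pairs, went from 25.7 and 22.1 TPM to 49.4 and 54.1 TPM, a log2 fold change of 1.11. NFKBID rose by 0.52 and NFKBIL1 by 0.36. NFKBIB, which encodes IkB-beta, was at 18.5 and 17.8 TPM in the sgNS libraries and 20.5 and 16.3 TPM in the METTL16 KO libraries. Its groups overlapped, and its log2 fold change of 0.011 had an interval of -0.20 to 0.22. After median-ratio scaling the value of NFKBIB was -0.15, that of NFKBIL1 was 0.19 and no longer passed the test, and the other 3 still rose.

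Among the 8 tested of 9 other negative regulators, 5 rose and 2 fell, or 62.5% higher against 50.1% of all genes tested. After median-ratio scaling 4 rose and 3 fell. TNIP2, a relative of TNIP1, rose by 1.01. The deubiquitinase CYLD rose by 0.56 and TAX1BP1, an adaptor of A20, by 0.45. OTULIN, which removes linear ubiquitin chains, went from 22.2 and 23.1 TPM to 13.5 and 13.4 TPM and fell by 0.75. TANK fell by 0.21, and TNIP3 was listed at 0 in all libraries.

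The 28 other known NF-kB target genes, of which 24 were tested, had the highest median of the lists of other genes, 0.90, or 0.73 after median-ratio scaling. Of the 24, 19 rose, 11 of them at least 2-fold, 1 fell and 4 did not pass the test, or 79.2% higher against 50.1% of all genes tested. TRAF1, at 0.76 and 0.75 TPM in the sgNS libraries, passed the filter on low values only through its METTL16 KO libraries. With median-ratio scaling 3 fell, as CFB and NINJ1 joined IER3, and 19 rose, and with quantile normalization 3 fell and 18 rose. The urokinase gene PLAU was listed at 3.14 and 2.47 TPM in the sgNS libraries and at 54.4 and 57.1 TPM in the METTL16 KO libraries, a log2 fold change of 4.27. The neutrophil chemokines CXCL1, CXCL8 and CXCL2 rose by 4.20, 3.46 and 3.22. In CXCL2 that was a change from 10.6 and 11.0 TPM to 98.8 and 104.8 TPM. ICAM1, an adhesion molecule and a classical target, did not pass the test, at 150.4 and 146.0 TPM against 159.2 and 155.2 TPM (log2 fold change 0.085, adjusted p 0.057, limma with Benjamini-Hochberg adjustment). IER3 fell by 0.74, from 60.9 and 65.1 TPM to 37.8 and 37.5 TPM. ICAM1, TRAF1, CFB, NINJ1, CD40 and TNIP3 were also picked out after their values were seen.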

How the data were processed

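RNA-seq was performed on 2 sgNS and 2 METTL16 KO libraries of Huh7 cells. According to the methods and the submitters' processing notes, the authors used Cutadapt for trimming, STAR for mapping to GRCh38 and RSEM for quantification; versions and annotation are not given in the sources used here. The authors deposited 1 table of TPM values per gene symbol, rounded to 2 decimals. The methods name the unit RPKM, but TPM was taken as the unit because each column sums to 1000000. The methods name a kit for stranded mRNA, while the sample records also name depletion of ribosomal RNA. Columns were matched to samples by name, and no library was left out.

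Here, log2(TPM + 0.1) was fitted with limma 3.58.1 in R 4.3.3 (lmFit, eBayes with trend, no block, residual variance shared across genes) for 11971 genes with a mean of at least 1 TPM. Genes were called at a Benjamini-Hochberg adjusted p under 0.05, and as at least 2-fold at a log2 fold change of 1 as well. The script was tested on simulated data. Tables and figures were made in Python 3.11.15 by use of pandas 2.3.3, numpy 2.4.6 and matplotlib 3.10.9. Gene positions are from GENCODE 44 on GRCh38 and promoter windows from RefSeq on GRCh38.p14, in which 82.3% of the tested genes were found by symbol or synonym.

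The 10 members and all lists were chosen with earlier results of these data known. All members, METTL16 and the other IkB family proteins were named. Of each other list, up to 4 genes with the largest absolute change among those called were named, with BIRC2, genes that overlap a member and its nearest tested neighbours. Alternatives were pseudocounts of 1 and 0.01, no filter, a minimum mean of 5 TPM, median-ratio scaling, quantile normalization, a block, limma without trend, an unmoderated linear model and each library left out in turn.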

Additional observations from a re-analysis of the deposited data

How the results depend on the processing

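All 10 members rose under each of the 13 alternatives in which they were tested. With a minimum mean of 5 TPM only 9 were tested, since BIRC3 was dropped, and all 9 rose. Their highest adjusted p was 0.011 to 0.038, from the unmoderated linear model. The number at least 2-fold higher was 3 with a pseudocount of 1, a minimum mean of 5 TPM, median-ratio scaling or quantile normalization, 4 to 5 with 1 library left out, and 4 otherwise. Log2 fold changes ran from 0.16 to 0.36 for NFKB1 and from 2.45 to 3.68 for BIRC3. METTL16 ran from -0.68 to -0.45.

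The number of other pathway genes that fell was 12 with median-ratio scaling, 11 with quantile normalization and 2 with the unmoderated model, against 7. The cause was not tested. Over all genes tested 5999 rose and 3065 fell, or 66.2% higher, against 4359 and 4375, or 49.9%, with median-ratio scaling and 4420 and 4248, or 51.0%, with quantile normalization. The unmoderated model called 4049 and 1949, and the count at least 2-fold higher was 922, but 1553 without a filter 575 with a minimum mean of 5 TPM and 586 with quantile normalization.

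With the replicate block, all 10 members rose, 54 of the other pathway genes rose and 6 fell. That fit drew its spread almost wholly from all genes together, so its p-values say little about a single gene. The deviations of same-numbered libraries had a correlation of -0.044 across genes, so the numbers were not taken to pair the libraries. No read depth is known, and TPM of 2 libraries a group limits what small changes can be seen.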
